A study of Mus musculus with 74 samples.

Results

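Genes of the heat shock response and of the cold-inducible RNA-binding family were followed through the day in brown and white adipocytes of the mouse. They are Hsph1, Hspa1a, Hspa1b, Hspa8, Dnajb1, Hsp90aa1, Hspb1, Hsf1, Cirbp and Rbm3, 10 of the 55487 genes in the deposited count table, and they were taken by gene symbol. For accessibility (ATAC-seq), 19 of 42572 regions in brown adipocytes and 18 of 25050 regions in white adipocytes were annotated to them, and 9 of 10368 peaks in a list of binding sites of the clock factor BMAL1. The mice carried Adiponectin-Cre and the NuTRAP allele. Under the Adiponectin promoter, Cre acts in adipocytes, and NuTRAP then labels their ribosomes with GFP and marks their nuclei for sorting. The brown fat depot (BAT) and the inguinal white fat depot (WAT) were taken at Zeitgeber times (ZT, hours from lights on) ZT1, ZT5, ZT9, ZT13, ZT17 and ZT21. Each depot and time had 3 RNA libraries and 3 ATAC libraries, except BAT at ZT17 with 2 RNA libraries, which gives 17 BAT and 18 WAT RNA libraries and 18 ATAC libraries for each depot. BMAL1 ChIP had 2 libraries, made at ZT4 from minced inguinal fat of C57BL6J animals, a tissue that the labels call white adipocytes. The labels used here give no diet, sex or age and do not say that replicates came from separate animals, so p-values measure only the spread between these libraries. ZT13, ZT17 and ZT21 are called dark here by the usual convention.

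Heat shock proteins are chaperones that keep other proteins folded. The transcription factor HSF1 switches many of them on when proteins unfold, by binding heat shock elements, which are inverted repeats of the unit GAA, and HSP70 proteins then fold clients with the help of J-domain proteins and of HSP110 proteins, which exchange their nucleotide. Cirbp and Rbm3 encode small RNA-binding proteins whose mRNAs are known to accumulate at mild cold, and in mouse liver the daily cycle of body temperature is known to move heat shock mRNAs and Cirbp mRNA in opposite directions. Brown adipocytes make heat through the uncoupling protein UCP1.

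The RNA was ribosome-bound RNA pulled down with anti-GFP, so a level here is RNA on adipocyte ribosomes. Totals were 4980147 to 46274438 estimated counts in BAT libraries and 1301522 to 6481154 in WAT libraries. Ucp1 had a median of 1418 CPM (counts scaled to the size of their library) in BAT and 54.4 in WAT, whereas Elovl3, another brown fat marker of the list, was near 0 in both depots. Loci of ribosomal RNA took 0.813% to 4.64% of the counts in BAT libraries and 5.26% to 66.0% in WAT libraries, and mitochondrial genes took 0.126% to 2.25% in BAT and 0.686% to 27.6% in WAT. Markers of other cells differed between the depots as well. The 7 macrophage markers summed to 9.30 to 18.8 CPM in BAT and 40.5 to 221 CPM in WAT, and the 7 fibroblast markers to 9.87 to 70.8 CPM in BAT and 135 to 1072 CPM in WAT. Lymphocyte, endothelial and erythroid markers also had lower medians in BAT, whereas the 7 skeletal muscle markers had a higher one, 139.7 CPM in BAT and 51.7 CPM in WAT. The part of these differences in the results below was not tested.

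The promoters below are shown because heat shock elements and the E-box bound by BMAL1 can be read in them. RefSeq promoter sequences on GRCm38.p6 (mm10) were at hand for Hsph1, Hspa1a, Hspa1b, Hspb1, Dnajb1 and Cirbp, 6 of the 10 genes, and each runs 300 bases, from 250 before the start site to 50 after it, in the direction of transcription. Capitals mark GAANNTTC or TTCNNGAA, a head-to-head or tail-to-tail pair of heat shock units, and CACGTG, the E-box. These motifs read the same on both strands, so a search of 1 strand covers both. The Hsph1 promoter lies at chr5:149636287-149636586 on the minus strand, Hspa1b at chr17:34959189-34959488 and Hspa1a at chr17:34972107-34972406, both on the minus strand, Hspb1 at chr5:135887669-135887968 and Cirbp at chr10:80167589-80167888, both on the plus strand.
Hsph1: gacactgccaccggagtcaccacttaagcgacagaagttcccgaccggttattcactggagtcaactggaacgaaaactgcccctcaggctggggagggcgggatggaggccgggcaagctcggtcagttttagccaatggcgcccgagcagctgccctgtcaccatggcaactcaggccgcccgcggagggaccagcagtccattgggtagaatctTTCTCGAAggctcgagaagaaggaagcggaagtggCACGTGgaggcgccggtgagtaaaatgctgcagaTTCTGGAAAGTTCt
Hspa1b: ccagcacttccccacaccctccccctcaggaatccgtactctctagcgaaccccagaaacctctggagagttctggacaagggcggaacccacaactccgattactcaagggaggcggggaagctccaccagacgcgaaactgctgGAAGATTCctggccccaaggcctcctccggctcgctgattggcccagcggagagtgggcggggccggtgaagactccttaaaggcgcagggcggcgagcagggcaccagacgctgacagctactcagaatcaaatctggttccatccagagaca
Hspa1a: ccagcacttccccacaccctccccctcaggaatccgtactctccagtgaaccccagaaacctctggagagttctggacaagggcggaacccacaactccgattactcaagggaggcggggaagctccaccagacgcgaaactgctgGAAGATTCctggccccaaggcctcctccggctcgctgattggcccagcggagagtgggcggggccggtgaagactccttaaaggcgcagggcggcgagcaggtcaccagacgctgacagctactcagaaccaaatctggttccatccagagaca
Hspb1: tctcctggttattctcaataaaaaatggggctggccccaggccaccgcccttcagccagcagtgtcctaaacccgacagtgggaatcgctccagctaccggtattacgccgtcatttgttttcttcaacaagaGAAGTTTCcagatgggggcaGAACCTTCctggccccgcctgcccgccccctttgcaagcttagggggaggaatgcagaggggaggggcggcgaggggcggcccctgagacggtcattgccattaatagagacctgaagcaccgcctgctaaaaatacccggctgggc
Cirbp: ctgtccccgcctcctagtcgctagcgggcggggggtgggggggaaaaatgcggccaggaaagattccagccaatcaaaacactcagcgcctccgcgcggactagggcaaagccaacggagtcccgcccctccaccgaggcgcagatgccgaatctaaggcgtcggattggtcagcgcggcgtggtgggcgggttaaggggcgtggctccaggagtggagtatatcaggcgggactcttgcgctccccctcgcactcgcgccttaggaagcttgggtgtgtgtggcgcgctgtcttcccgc

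The Hsph1 promoter held TTCNNGAA at bases 218 to 225 and 287 to 294, and the second match runs on into GAANNTTC at bases 292 to 299, so that bases 287 to 299 form TTCNNGAANNTTC, a run of 3 units. Hsph1 also held CACGTG at bases 253 to 258, chr5:149636329-149636334, just past the start site. The printed sequence is 1 of 2 Hsph1 entries, and by the start site of the other the same CACGTG lies 16 bases before it. Hspb1 held GAANNTTC at bases 134 to 141 and 154 to 161, and Hspa1a and Hspa1b each held it at bases 147 to 154. The printed Hspa1b and Hspa1a promoters differed at 4 of 300 bases, counted from 1 at the first printed base with the Hspa1b base first, T44C, C47T, G249T and T276C. Neither the Cirbp nor the Dnajb1 promoter held any of these letters in its window. Among the 32851 mouse promoters of the same length, 7.86% held GAANNTTC, 8.52% held TTCNNGAA, 7.15% held CACGTG and 0.603% held a run of 3 units in either order. A match is a description of the letters and not a measured site.

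The levels of the 10 genes per length spanned several orders of magnitude in each depot. On the authors' deposited TPM scale, which accounts for transcript length, Hsp90aa1, the inducible HSP90 alpha, had a median of 635.6 TPM in BAT and 12570 TPM in WAT, where it ranked 7 of the 12541 genes in the table. Hspa8, the constitutive HSP70, followed with 629.9 TPM in BAT and 244.5 TPM in WAT, and Hspb1, the small heat shock protein HSP27, with 222 TPM in BAT and 60.2 TPM in WAT. Rbm3 had 59.6 TPM in BAT and 81.9 TPM in WAT, and Cirbp had 29.2 TPM in BAT and 25.9 TPM in WAT. Hsph1, which encodes HSP110, had 9.59 TPM in BAT and 6.12 TPM in WAT. The J-domain gene Dnajb1 had 2.74 TPM in BAT and 4.49 TPM in WAT, and Hsf1 had 2.92 TPM in BAT and 4.26 TPM in WAT. The stress-inducible HSP70 genes Hspa1a and Hspa1b were lowest, with medians of 0.32 and 0.51 TPM in BAT and 0.56 and 0.89 TPM in WAT, where 3 and 4 of the 18 libraries listed no value for them. Hsf1 had no value in 1 WAT library. The libraries without a value had 0 counts of the gene and are left out of its median. The WAT medians of these 3 genes are thus higher than they would be over all 18 libraries. The levels of Hsp90aa1 and Hspa8 in BAT were nearly equal, and the ranges over libraries of Dnajb1 and Hsf1 overlapped in both depots.

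In BAT, Hsph1 was high in the middle of the light phase and low from ZT9 to ZT13. Cirbp ran the other way in CPM, but in TPM its ZT9 and ZT13 libraries did not stand apart. All values per library below are CPM, scaled over all 35 RNA libraries by TMM, a factor that makes the bulk of genes comparable. Hsph1 had 37.1, 39.5 and 44.6 CPM in BAT at ZT1, 121, 146 and 72.5 CPM at ZT5, 16.5, 6.70 and 4.91 CPM at ZT9, 8.54, 7.74 and 12.8 CPM at ZT13, 45.8 and 35.5 CPM at ZT17, and 59.3, 36.1 and 48.8 CPM at ZT21. Every BAT library at ZT9 and ZT13 was below every library at the other 4 times, and in CPM the ZT5 libraries were above all others. On the authors' TPM scale the ZT9 and ZT13 libraries were again lowest, at 0.84 to 3.84 TPM. The third ZT5 library, at 14.75 TPM, was however below ZT21 libraries of 15.29 and 19.79 TPM. The means were 113 ± 37.2 CPM at ZT5 and 9.35 ± 6.21 CPM at ZT9 (SD, n = 3 each), a 12.1-fold difference within 4 h. The difference between the 6 times was called by edgeR's quasi-likelihood test with Benjamini-Hochberg adjustment over all 12394 BAT genes tested (adjusted p = 0.000236), and leaving out any of the 17 libraries kept the adjusted p between 0.000103 and 0.00139. Other measures differed between some of these times. Ribosomal RNA loci took 1.62% to 3.98% of the counts in the 6 BAT libraries of ZT9 and ZT13, and 0.813% to 1.45% in the others apart from a ZT5 library with 2.435% and a ZT21 library with 4.64%. The 7 fibroblast markers summed to 20.05 to 24.46 CPM at ZT5 and 25.69 to 38.55 CPM at ZT9, and the 6 white adipocyte markers to 569.8 to 817.6 CPM at ZT5 and 934.5 to 1161 CPM at ZT9. At ZT13, where Hsph1 was also low, they summed to 13.91 to 29.57 CPM and 534.8 to 954.3 CPM. These ranges enclosed those of ZT5, so neither sum followed Hsph1 over the day. The 6 general adipocyte markers summed to 30200 to 44490 CPM at ZT5 and 50280 to 69290 CPM at ZT9. The groups overlapped for the macrophage markers, which summed to 9.30 to 16.1 CPM at ZT5 and 12.3 to 18.6 CPM at ZT9, and for the skeletal muscle markers, which summed to 140 to 184 CPM at ZT5 and 131 to 238 CPM at ZT9. The part of these measures in the courses of Hsph1 and Cirbp was not tested.

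**Figure D1:**
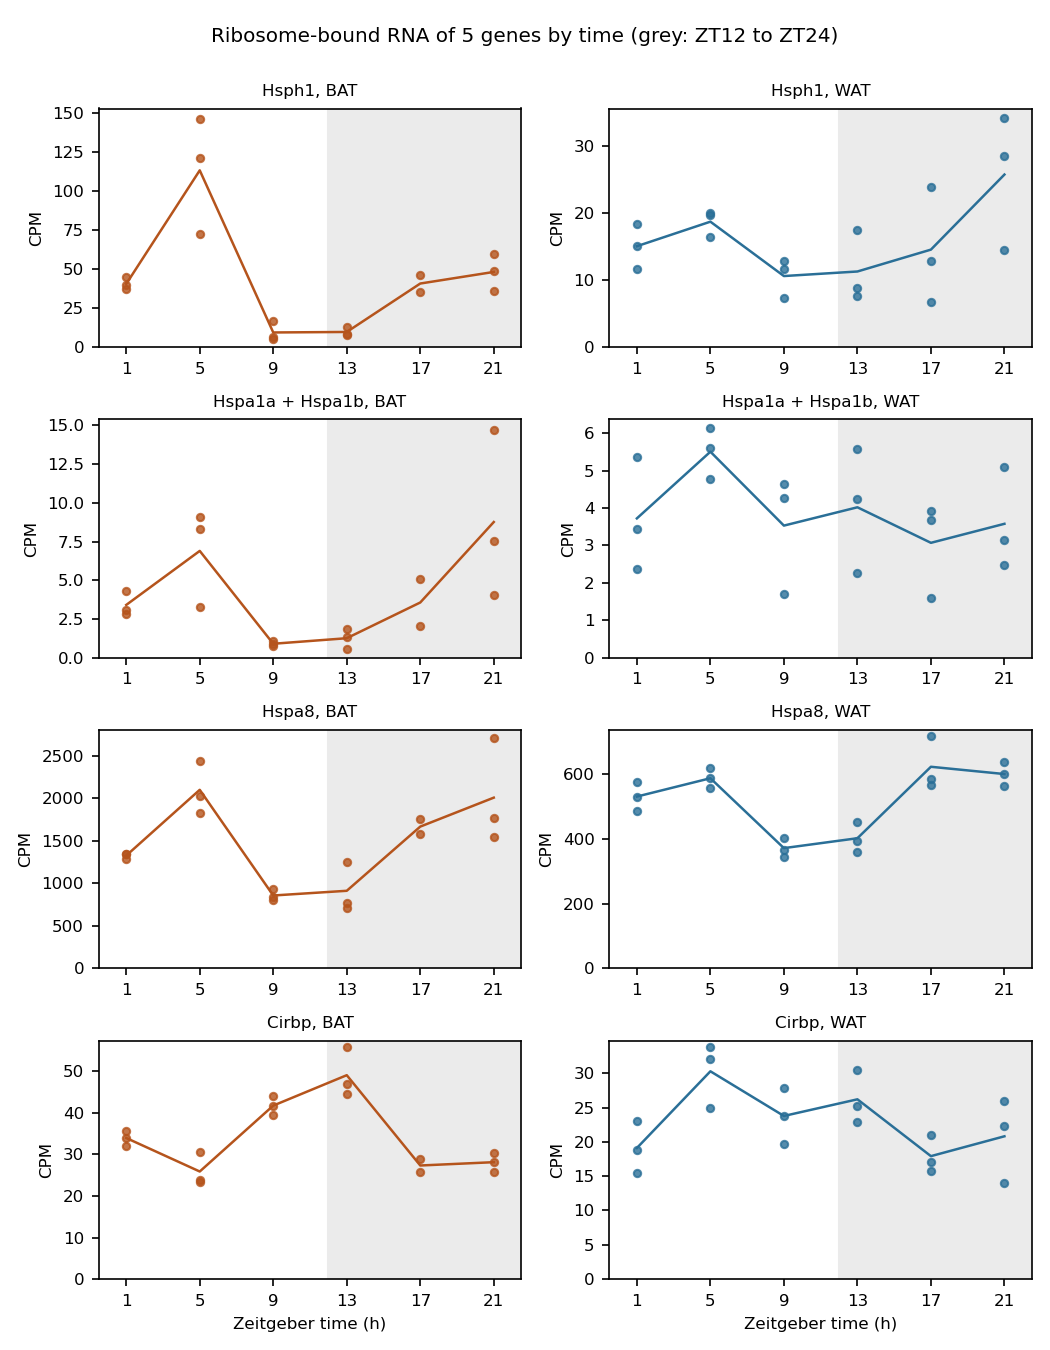
CPM of Hsph1, of Hspa1a and Hspa1b summed, of Hspa8 and of Cirbp (vertical axes, from 0, each with its own scale) against Zeitgeber time in hours, for BAT on the left and WAT on the right. Points are libraries, lines join the means of each time, and grey marks ZT12 to ZT24. In BAT the 3 chaperone panels are lowest at ZT9 and ZT13, where Cirbp is highest, with Hsph1 at 4.91 to 16.5 CPM and Cirbp at 39.4 to 55.8 CPM.

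Cirbp, the cold-inducible RNA-binding protein, had 34.01, 35.7 and 32.2 CPM in BAT at ZT1, 30.6, 23.8 and 23.3 CPM at ZT5, 39.4, 41.7 and 44.2 CPM at ZT9, 44.5, 55.8 and 47.0 CPM at ZT13, 25.8 and 28.9 CPM at ZT17, and 30.4, 28.2 and 25.9 CPM at ZT21. In CPM the ZT9 and ZT13 libraries were above all others, which is the reverse of Hsph1. On the authors' TPM scale they did not stand apart. Cirbp had 32.8 to 36.92 TPM in BAT at ZT1, a range that held the first ZT9 library. Cirbp had 29.18 and 27.3 TPM in the other ZT9 libraries and 29.99 to 39.66 TPM at ZT13. Its means were 25.9 ± 4.08 CPM at ZT5 and 49.1 ± 5.96 CPM at ZT13 (SD, n = 3 each), a 1.90-fold range, and the 6 times differed (edgeR, adjusted p = 0.00333, 0.00333 to 0.0139 with any 1 library left out). Across the 17 BAT libraries, which share their times and scaling, Pearson's r of log2 CPM between Hsph1 and Cirbp was -0.864, given as a description. Across the 18 WAT libraries it was -0.0757. Rbm3, the relative of Cirbp with the same known response to cold, did not follow it: its BAT libraries ranged from 60.7 to 119 CPM, with no difference called between times (edgeR, adjusted p = 0.617), and its r with Cirbp was -0.193 in BAT.

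**Figure D2:**
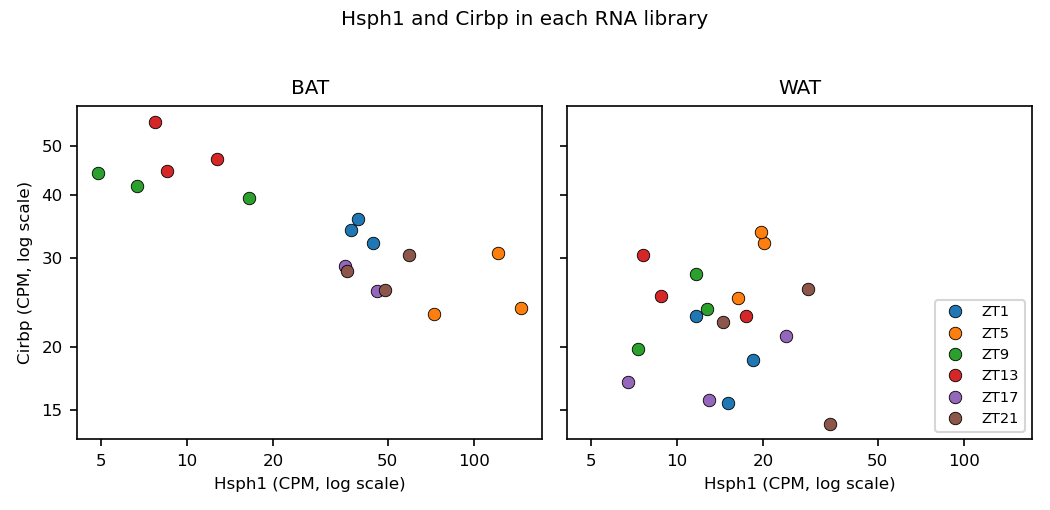
Cirbp (vertical axis, CPM, log scale) against Hsph1 (horizontal axis, CPM, log scale) in each RNA library, BAT on the left and WAT on the right, coloured by time. The BAT libraries of ZT9 and ZT13 sit at the upper left, and the WAT libraries form no such line (r = -0.0757).

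A 12 h component fitted beside the 24 h terms tests whether a course departs from a single daily wave. It was called for only 12 of the 12394 BAT genes (0.0968%), and Hsph1 and Cirbp were among them, 2 of the 10 genes. Sizes of fitted waves are peak to trough on the log2 scale. The 12 h component of Hsph1 measured 2.38 ± 0.35 (SE), peaking at ZT5.20 and 12 h later (adjusted p = 0.0412), and that of Cirbp 0.72 ± 0.11, peaking at ZT11.7 and 12 h later (adjusted p = 0.0475). These calls lie close to the threshold. That of Hsph1 was lost when any of 9 of the 17 libraries was left out, which were all ZT1 libraries, 2 each of ZT5 and ZT13, and 1 each of ZT9 and ZT17, and that of Cirbp when any of 15 was left out, all but 2 of the ZT21 libraries. The sizes stayed within 2.15 to 2.68 and 0.67 to 0.80. Of the other 10 genes called for the 12 h component, 3 are co-chaperones from a list of 30 chaperone partners.

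Hspa8, the constitutive HSP70, shared the low point of Hsph1 at a much higher level. Its BAT libraries had 1343, 1291 and 1345 CPM at ZT1, 2030, 1830 and 2438 CPM at ZT5, 800, 834 and 938 CPM at ZT9, 773, 715 and 1249 CPM at ZT13, 1758 and 1576 CPM at ZT17, and 1771, 2705 and 1546 CPM at ZT21. All ZT9 and ZT13 libraries were below all libraries of the other times, the 2.45-fold range of the means lay between ZT5 and ZT9, and the 6 times differed (edgeR, adjusted p = 0.00734). Hspa1a and Hspa1b, the stress-inducible HSP70 genes, are near-identical copies whose reads may have been split between them, so their sum is given first. It was 3.11, 4.29 and 2.83 CPM in BAT at ZT1, 8.32, 9.10 and 3.26 CPM at ZT5, 0.901, 1.08 and 0.727 CPM at ZT9, 0.547, 1.37 and 1.86 CPM at ZT13, 5.08 and 2.05 CPM at ZT17, and 14.7, 7.56 and 4.03 CPM at ZT21. The ZT9 and ZT13 libraries were again the lowest, on counts of only 4 to 19 a library. Taken apart, the 6 times differed for Hspa1a (adjusted p = 0.0195) and missed the threshold for Hspa1b (adjusted p = 0.0519).

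Dnajb1, the J-domain partner of HSP70, had 13.6, 18.2 and 15.8 CPM in BAT at ZT1, 18.2, 16.9 and 11.2 CPM at ZT5, 7.10, 7.13 and 8.73 CPM at ZT9, 9.31, 9.11 and 8.63 CPM at ZT13, 12.7 and 10.4 CPM at ZT17, and 22.9, 11.5 and 18.4 CPM at ZT21. The 6 libraries of ZT9 and ZT13 were the lowest here too, and a single 24 h wave of 1.15 ± 0.21 (SE) peaking at ZT23.6 was called (edgeR, adjusted p = 0.00877). Dnajb1 was also the only gene of the 10 with a JTK_CYCLE q-value under 0.05 in the authors' deposited table for BAT, at 0.0330. Hsf1, which encodes the factor itself, ranged from 2.22 to 10.0 CPM in BAT. Its ZT1 libraries were all above those of ZT9 and ZT13, but its differences were not called (edgeR, adjusted p = 0.245 between times).

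Hspb1 and Hsp90aa1 had other profiles. Hspb1 had 196, 217 and 203 CPM in BAT at ZT1, 709, 644 and 392 CPM at ZT5, 338, 186 and 316 CPM at ZT9, 214, 267 and 180 CPM at ZT13, 176 and 140 CPM at ZT17, and 253, 121 and 119 CPM at ZT21. The ZT5 libraries were above all others, and the 24 h wave of 1.70 ± 0.31 (SE) peaked at ZT6.16 (edgeR, adjusted p = 0.00831). Hspb1 was also the only gene of the 10 that differed between dark and light in BAT, with a log2 difference of dark minus light of -0.86 ± 0.18 (SE; edgeR, adjusted p = 0.0265), a call lost when any of 10 of the 17 libraries was left out (-0.80 to -0.91 in those fits). In BAT 1.3% of the tested genes were called, 0.855% higher and 0.444% lower in the dark. Hsp90aa1 had 865, 542 and 684 CPM in BAT at ZT1, 1740, 1677 and 2575 CPM at ZT5, 1415, 3156 and 2648 CPM at ZT9, 613, 755 and 1096 CPM at ZT13, 808 and 762 CPM at ZT17, and 954, 2121 and 617 CPM at ZT21. It stayed high at ZT9, when Hsph1 and Hspa8 were low (adjusted p = 0.0281 between times, and 0.0501 to 0.0786 when any of 9 libraries was left out). Its high BAT libraries at ZT9 and ZT21 were also those with more ribosomal RNA: the libraries of 3156, 2648 and 2121 CPM held 3.65%, 3.75% and 4.64% ribosomal RNA loci, while the ZT13 library with 3.98% had 1096 CPM. The part of this share in the result was not tested.

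**Figure D3:**
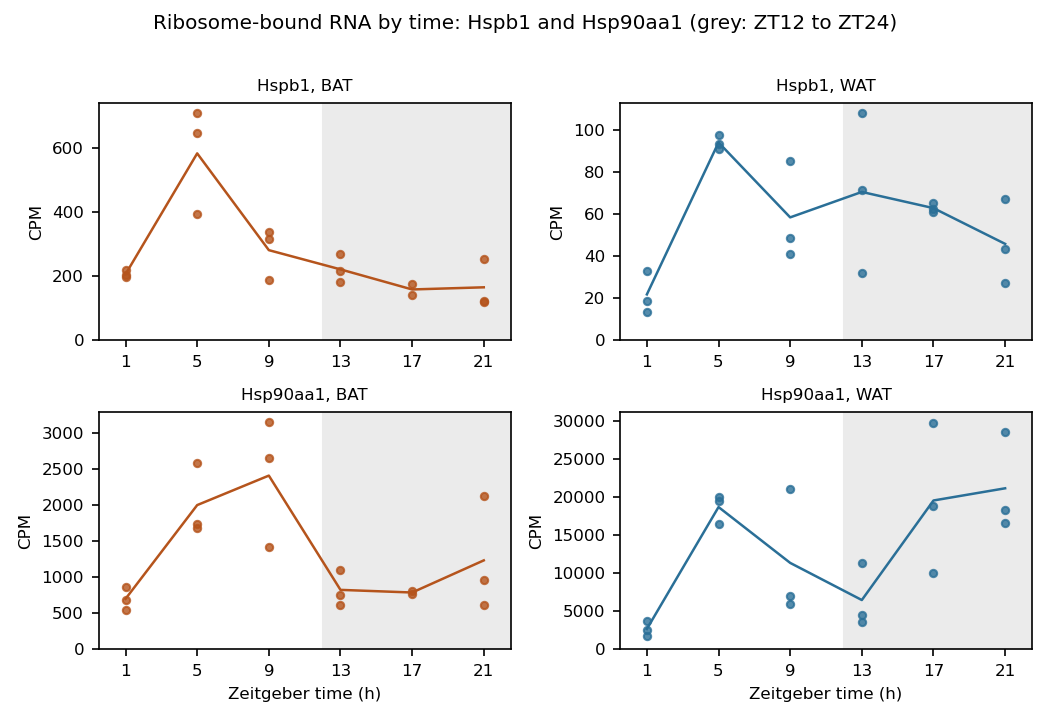
CPM of Hspb1 and Hsp90aa1 (vertical axes, from 0, each with its own scale) against Zeitgeber time in hours, BAT on the left and WAT on the right. Points are libraries, lines join the means of each time, and grey marks ZT12 to ZT24. Hspb1 is highest at ZT5 in both depots, with means of 582 CPM in BAT and 93.9 CPM in WAT.

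Counted over the 10 genes, BAT had 7 whose times differed, all but Hspa1b, Hsf1 and Rbm3, where 4.98% of the 12394 tested genes were called. The single 24 h wave was called for 3, Hsph1, Hspb1 and Dnajb1, where 9.17% of genes were called, and the median size over the 10 genes was 1.22 against 0.49 over all tested genes. For Hsph1 that wave measured 2.84 ± 0.72 (SE) with a peak at ZT1.09 (edgeR, adjusted p = 0.0441), and it lost its call when any of 13 of the 17 libraries was left out, all but the first ZT1, the second ZT5, the first ZT17 and the second ZT21 library. Calls for Hsph1, Cirbp, Hspa8 and Hspb1 between times held whichever library was left out. Dnajb1 lost that call without the second ZT9 library (adjusted p = 0.0617) or the second ZT13 library (0.0537), and Hspa1a without the first ZT21 library (0.0522). The second ZT21 library moved these counts the other way: without it the 24 h wave was called for 7 of the 10 genes and 3383 of all, the genes gained being Hsp90aa1, Hsf1, Hspa1b and Cirbp, and the times differed for 8 of the 10, with Hspa1b gained.

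In WAT the genes called for a difference between times were Hsp90aa1 and Hspb1. Of the 9 genes tested there, 0 were called for the 24 h wave, where edgeR called 9.9% of 12703 genes, and 0 for dark against light, where it called 7.5%, 4.34% higher and 3.16% lower in the dark. DESeq2, the other tool run, called 1 for the 24 h wave, Rbm3, and 0 for dark against light, and edgeR's unadjusted p was under 0.05 for 1, Rbm3, in the 24 h wave and for 0 in dark against light. The 12 h component was called by edgeR for 0 of the 9, as for 0% of all genes, with 2 at an unadjusted p under 0.05, Hspb1 and Hsp90aa1, and by DESeq2 for 2, Hsp90aa1 and Hspa8. Hspa1a had 123 counts over the 18 WAT libraries and did not pass the filter on low counts. Between times 2 of the 9 differed, Hsp90aa1 (adjusted p = 0.0189) and Hspb1 (adjusted p = 0.0196), where 12.5% of genes were called. Hspb1 lost that call without 1 or the other of 2 ZT1 libraries (adjusted p = 0.0849 and 0.0845) or the first or second ZT5 library (0.0516 and 0.0531), and Hsp90aa1 without any of those 4, the first ZT17 or the first ZT21 library (0.0502 to 0.0908).

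Hspb1 had 33.0, 13.5 and 18.6 CPM in WAT at ZT1, 91.0, 93.0 and 97.7 CPM at ZT5, 48.7, 41.1 and 85.2 CPM at ZT9, 108, 32.1 and 71.3 CPM at ZT13, 65.0, 60.8 and 62.3 CPM at ZT17, and 43.3, 66.9 and 26.9 CPM at ZT21. In CPM the ZT5 libraries were close together and above all others except the ZT13 library of 108 CPM. On the authors' TPM scale they were not close together, with 135.65, 151.37 and 86.03 TPM. The last was below ZT13 libraries of 154.88 and 100.9 TPM and a ZT21 library of 86.81 TPM. Hsp90aa1 had 3726, 2482 and 1719 CPM in WAT at ZT1, 19440, 20020 and 16460 CPM at ZT5, 5926, 6962 and 21050 CPM at ZT9, 4426, 3595 and 11290 CPM at ZT13, 18810, 9999 and 29700 CPM at ZT17, and 28500, 18200 and 16610 CPM at ZT21. The ZT1 libraries were below all but the ZT13 library of 3595 CPM, and the means spanned 7.99-fold, between ZT1 and ZT21. Mitochondrial genes took 9.33% to 23.9% of the counts in the ZT1 libraries, 4.29% to 14.3% at ZT5, 4.10% to 9.11% at ZT17 and 0.686% to 9.43% at ZT21, and the libraries of ZT9 and ZT13 with the most Hsp90aa1 had the lowest shares of their time, 2.52% and 9.85%. The part of this share in the result was not tested. Without the 3 WAT libraries in which ribosomal RNA loci took 53.0% to 66.0% of the counts, the adjusted p of Hsp90aa1 between times was 0.00140.

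Hsph1 in WAT had 15.1, 11.6 and 18.3 CPM at ZT1, 20.03, 16.3 and 19.7 CPM at ZT5, 11.7, 7.33 and 12.8 CPM at ZT9, 17.4, 8.77 and 7.60 CPM at ZT13, 23.9, 12.9 and 6.75 CPM at ZT17, and 28.5, 34.2 and 14.4 CPM at ZT21. In CPM its ZT5 and ZT21 libraries were all above those of ZT9 and the other pairs of times overlapped, and no difference was called (edgeR, adjusted p = 0.304 between times). On the authors' TPM scale ZT9 overlapped both. Hsph1 had 1.89 to 12.28 TPM at ZT9, 6.75 to 17.11 TPM at ZT5 and 2.99 to 20.23 TPM at ZT21. Hspa8 ranged from 346 to 404 CPM in WAT at ZT9 and from 359 to 454 CPM at ZT13, below its 488 to 720 CPM at the other 4 times. In CPM it was thus low at the same times as in BAT, but the differences were not called (adjusted p = 0.294). On the authors' TPM scale these times did not stand apart in WAT. Hspa8 had 111 to 244 TPM at ZT9, 243 to 289 TPM at ZT13 and 189 to 261 TPM at ZT17. Cirbp ranged from 14.1 to 33.8 CPM in WAT (adjusted p = 0.352) and Rbm3 from 35.3 to 137 CPM (adjusted p = 0.174). Dnajb1 in WAT lay between 2.25 and 23.8 CPM and Hsf1 between 0 and 10.8 CPM, with no call for either.

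The levels of the 10 genes were then compared between BAT and WAT at the same times. In bulk samples such as these, fewer cells of a type and less RNA per cell cannot be told apart. Over all times, Hspb1 had a lowest, median and highest BAT library of 119, 214 and 709 CPM, against 13.5, 61.6 and 108 CPM for WAT, and every BAT library was above every WAT library. The log2 difference of BAT minus WAT was 2.20 ± 0.19 (SE; edgeR, adjusted p = 4.06e-13). For Hspa8 these were 715, 1345 and 2705 CPM for BAT, against 346, 561 and 720 CPM for WAT, with a log2 difference of 1.45 ± 0.12 (adjusted p = 8.50e-14), and its ranges met only at their ends. Hsph1 had 4.91, 37.1 and 146 CPM as its BAT values, against 6.75, 14.8 and 34.2 CPM for WAT, with a log2 difference of 1.05 ± 0.23 (adjusted p = 9.04e-05). Its BAT range enclosed its WAT range, because the BAT libraries of ZT9 and ZT13 were as low as the lowest WAT libraries. Cirbp had 23.3, 32.2 and 55.8 CPM as its BAT values, against 14.1, 23.0 and 33.8 CPM for WAT, and was higher in BAT by 0.57 ± 0.11 (adjusted p = 3.35e-05).

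Hsp90aa1 went the other way, with a lowest, median and highest BAT library of 542, 954 and 3156 CPM, against 1719, 13880 and 29700 CPM for WAT, and a log2 difference of -3.10 ± 0.29 (SE; edgeR, adjusted p = 2.50e-12). In total 5 of the 10 genes differed, 4 higher and 1 lower in BAT, where 76.3% of the 14969 genes tested differed, 35.5% higher and 40.8% lower, so a call by itself sets none of them apart. Hspa1a, Hspa1b, Dnajb1, Hsf1 and Rbm3 were not called by edgeR, with log2 differences from -0.25 ± 0.50 for Hspa1a to 0.17 ± 0.13 for Rbm3. DESeq2 also called Hsf1, at a log2 difference of -0.46 (adjusted p = 0.0468), against -0.13 by edgeR. With DESeq2's size factors in place of TMM the median over all genes moved by -0.31, and the difference of Cirbp was then 0.26 on the log2 scale. The 5 calls were kept in each of the 35 fits that left out 1 library.

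**Figure D4:**
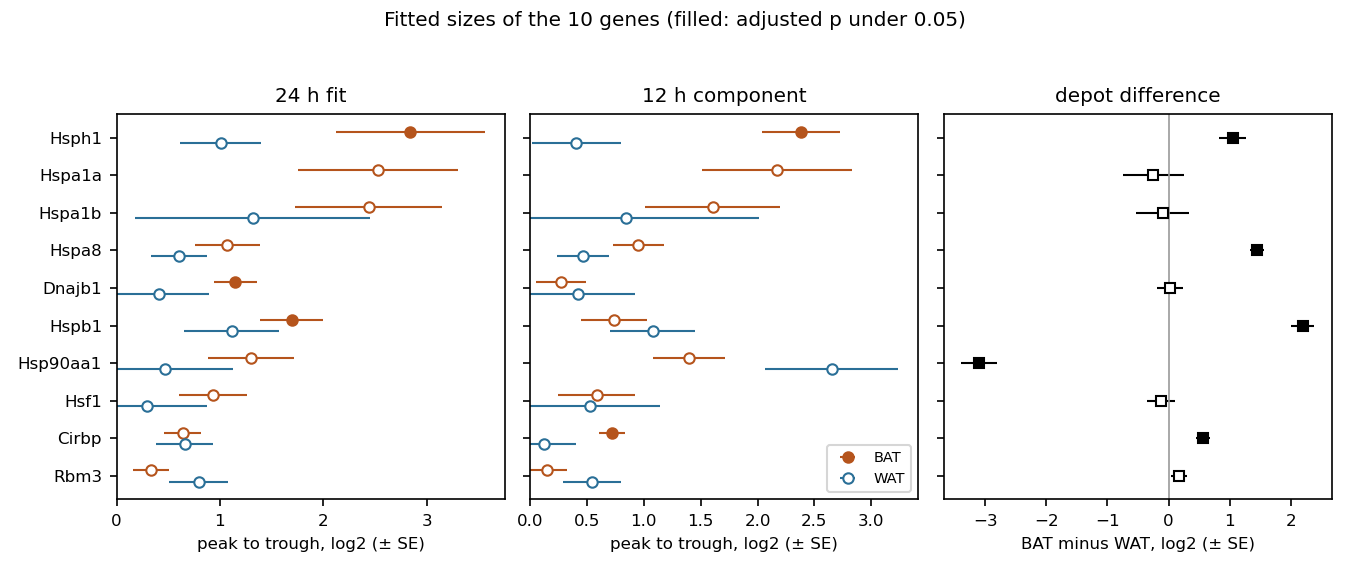
Fitted sizes of the 10 genes with SE bars: the 24 h wave and the 12 h component as peak to trough on the log2 scale for BAT and WAT, and the log2 difference of BAT minus WAT. Filled symbols have an adjusted p under 0.05. Filled 12 h symbols stand at Hsph1 (2.38) and Cirbp (0.72) in BAT, and the depot difference runs from -3.10 for Hsp90aa1 to 2.20 for Hspb1.

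Whether the daily course itself differed between BAT and WAT was tested by an interaction. With a single 24 h wave in each depot, the interaction was called for 0 of the 10 genes by edgeR, where 9.04% of genes were called, with 5 of the 10 at an unadjusted p under 0.05, and DESeq2 called 2, Hspa1a and Rbm3. The smallest edgeR adjusted p was 0.0576, for Rbm3. An interaction of depot with time as 6 separate levels, chosen after seeing the data, was called for Hsph1 (adjusted p = 0.0227), 1 of the 10 genes, where 5.18% were called. The planned interaction, with a single 24 h wave, did not call Hsph1 (edgeR, adjusted p = 0.152). The interaction with 6 levels was not called for Cirbp (adjusted p = 0.136) or Hsp90aa1 (adjusted p = 0.0887).

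Several co-chaperones shared the time course of Hsph1 in BAT. A list of 30 chaperone partners had 29 tested in BAT, of which 13 differed between times and 10 had a 24 h wave, where 4.98% and 9.17% of all genes were called, with a median size of 0.59 against 0.49 over all tested genes. Chordc1, a partner of HSP90, Dnaja1, a J-domain partner of HSP70, and Stip1, which links HSP70 to HSP90, were called for the 12 h component, the 3 of 29 that were, with sizes of 1.25 ± 0.16, 1.14 ± 0.15 and 0.87 ± 0.13 (SE) and peaks at ZT5.42, ZT5.65 and ZT5.35 (edgeR, adjusted p = 0.0239, 0.0239 and 0.0418). Dnaja1 averaged 211 CPM in BAT at ZT1, 338 CPM at ZT5, 122 CPM at ZT9, 101 CPM at ZT13, 235 CPM at ZT17 and 269 CPM at ZT21, the same order of times as Hsph1 apart from ZT9 and ZT13. Its libraries did not overlap between ZT5, at 317 to 367 CPM, and ZT9, at 114 to 132 CPM.

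By size of p, the 24 h waves called in BAT among the partners were led by Dnajb6 (0.92, peak at ZT13.4, adjusted p = 0.00831), Dnajb4 (0.76, ZT22.1, adjusted p = 0.0110), Dnajc7 (0.83, ZT10.3, adjusted p = 0.0210), Hspa4l (1.13, ZT4.89, adjusted p = 0.0213), Cacybp (1.14, ZT2.17, adjusted p = 0.0263), Hspa4 (0.55, ZT0.809, adjusted p = 0.0273), Dnaja1 (1.39, ZT0.422, adjusted p = 0.0297) and Stip1 (1.03, ZT1.90, adjusted p = 0.0300). Hspa4 and Hspa4l are HSP110 genes like Hsph1, and both peaked within the light phase. The J-domain genes were spread over the day, with Dnajb6 and Dnajc7 peaking when Dnajb1 was low.

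In WAT all 30 partners were tested, of which 14 differed between times and 12 had a 24 h wave, where 12.5% and 9.9% of all genes were called, with a median size of 1.06 against 0.98 over all tested genes. Dnaja1 (1.35, ZT21.3, adjusted p = 0.00476) and Chordc1 (1.34, ZT19.96, adjusted p = 0.0153), both called for the 12 h component in BAT, peaked in the dark phase there. Others of the 8 smallest p were Bag3 (1.55, ZT19.2), Bag1 (1.56, ZT19.2), Stub1 (1.76, ZT19.8), Hspb8 (1.65, ZT18.5), Hspe1 (1.59, ZT19.2) and Hspa9 (1.42, ZT19.5), with adjusted p from 0.00977 for Bag3 to 0.0280 for Hspa9. Of the 12, Cdc37 alone peaked in the light phase, at ZT7.00. Chordc1 averaged 22.7 CPM in WAT at ZT1, 25.2 CPM at ZT5, 23.7 CPM at ZT9, 20.5 CPM at ZT13, 46.3 CPM at ZT17 and 64.0 CPM at ZT21, highest at ZT17 and ZT21. Between dark and light, the 3 partners called in BAT (Hspa4l, Ahsa1 and Stip1) were lower in the dark, where 0.444% of all genes were. The 7 called in WAT, Hspb8 with the smallest p among them, were higher in the dark, where 4.34% of all genes were. Adipocyte and other markers differed by time as well. The 6 white adipocyte markers summed to 1413 to 6104 CPM in WAT from ZT1 to ZT13 and to 4237 to 9627 CPM at ZT17 and ZT21, and the 6 general adipocyte markers to 7811 to 52760 CPM and 32800 to 76020 CPM at these times. In dark against light in WAT, 3 of the 6 white adipocyte markers were called higher, and 5 of the 7 fibroblast and 2 of the 6 tested lymphocyte markers were called lower. Their median log2 differences were 0.85, -1.18 and -1.42. Of all genes, 4.34% were called higher and 3.16% lower. The mean mitochondrial share was 6.055% at ZT17 and 4.118% at ZT21, below the means of the other 4 times. The part of these measures in the partners' courses was not tested.

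Between depots, 27 of the 30 partners differed, 24 of them higher in BAT, where 76.3% of all genes differed and 35.5% were higher in BAT. The median log2 difference of the partners was 0.80 against -0.12 over all genes. A list of 11 splicing factors and kinases holds genes whose activity or splicing is known to depend on temperature. In BAT 4 of 11 had a 24 h wave (Clk3, Srsf3, Srsf5 and Srsf10), where 9.17% of all genes were called. In WAT 4 of 11 had one (Srsf2, Srsf3, Tra2a and Tra2b), where 9.9% of all genes were called. Immediate early genes, which respond to handling and stress within minutes, had 2 of 9 with a 24 h wave in BAT, Junb and Ier3, where 9.17% of all genes had one. In WAT 0 of the 10 tested had one, where 9.9% of all genes did. The sum of the list stayed between 112 and 205 CPM over the 17 BAT libraries.

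The genes with the pattern most like Hsph1 over the 17 BAT libraries were, by Pearson's r of log2 CPM, Gm15459 (0.969), Chordc1 (0.941), Hspa4 (0.941), Stip1 (0.938) and Dnaja1 (0.936). RefSeq lists Gm15459 as a pseudogene, and whether it shares reads with a chaperone gene was not tested. The last 4 are all on the partner list. Those most like Cirbp in BAT were Ppp1r3f (0.868), Adprhl2 (0.856), the clock gene Per1 (0.853), Sqstm1 (0.844) and Cacnb4 (0.832). Per1 averaged 12.2 CPM in BAT at ZT1, 10.3 CPM at ZT5, 28.5 CPM at ZT9, 40.2 CPM at ZT13, 9.10 CPM at ZT17 and 6.75 CPM at ZT21. Over the 18 WAT libraries the highest r was lower, 0.703 for Hsph1 (Fam210a, then Yod1, Gch1, Dnajc28 and Nsd2) and 0.752 for Cirbp (Ranbp9, then Slc31a1, Inpp5f, Rnf185 and Tbc1d9). Libraries of the same time share that time, so these values are a description.

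At the Hsph1 promoter accessibility stayed nearly level through the day, and called waves stood at other genes of the 10. ATAC-seq counts cut sites of a transposase in open chromatin of sorted adipocyte nuclei, and values are CPM of tags in 150 bp regions, scaled within each depot. In BAT 5 of the 19 regions had a 24 h wave, where 18.9% of the 42572 regions were called, and the median size of the 19 was 0.20 against 0.26 over all regions. The region 61 bases before the Hsph1 start, chr5:149636322-149636472, which spans the E-box shown above, had 49.2, 52.6 and 51.2 CPM in BAT at ZT1, 49.8, 47.4 and 45.6 CPM at ZT5, 53.6, 47.8 and 45.5 CPM at ZT9, 46.2, 50.2 and 50.6 CPM at ZT13, 47.6, 44.9 and 46.5 CPM at ZT17, and 50.6, 42.9 and 47.0 CPM at ZT21. The ZT1 libraries were all above those of ZT17 and the other pairs of times overlapped, and the fitted wave was 0.07 ± 0.06 (SE; edgeR, adjusted p = 0.661) while the RNA of Hsph1 spanned 12.1-fold. The regions nearest the starts of Hspa1a, Hspa1b, Hspa8, Hsf1 and Rbm3 were not called in BAT either, with sizes from 0.10 to 0.20.

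The strongest called region in BAT by p lay 150 bases before the Hsp90aa1 start, chr12:110696470-110696620. It had 37.6, 35.1 and 33.0 CPM at ZT1, 33.6, 34.2 and 35.1 CPM at ZT5, 38.6, 37.4 and 35.1 CPM at ZT9, 30.5, 31.0 and 28.8 CPM at ZT13, 27.3, 26.3 and 27.8 CPM at ZT17, and 25.6, 28.8 and 26.8 CPM at ZT21. All libraries of the light phase were above all libraries of the dark phase, and the wave of 0.47 ± 0.07 (SE) peaked at ZT6.17 (edgeR, adjusted p = 0.000891), near the ZT6.85 of the RNA's fitted wave, which was itself not called (adjusted p = 0.0982). At the Hspb1 start, chr5:135887861-135888011, BAT had 32.2, 31.4 and 30.1 CPM at ZT1, 27.4, 31.7 and 30.4 CPM at ZT5, 22.6, 21.03 and 23.0 CPM at ZT9, 18.1, 23.6 and 28.2 CPM at ZT13, 26.9, 20.2 and 23.9 CPM at ZT17, and 38.0, 31.1 and 28.6 CPM at ZT21. Its wave of 0.60 ± 0.12 peaked at ZT0.238 (adjusted p = 0.00522), earlier in the day than the ZT6.16 of the Hspb1 RNA wave. The authors' deposited table gave q-values of 0.0248 and 0.0310 to these regions.

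A weaker region 5750 bases past the Hspa8 start, in intergenic sequence at chr9:40806948-40807098, had 9.39, 9.33 and 7.58 CPM in BAT at ZT1, 3.63, 5.17 and 7.67 CPM at ZT5, 4.52, 6.24 and 4.36 CPM at ZT9, 4.81, 7.38 and 11.1 CPM at ZT13, 7.56, 7.48 and 9.32 CPM at ZT17, and 10.0, 8.38 and 12.9 CPM at ZT21, with a wave of 0.94 ± 0.23 (SE) peaking at ZT20.2 (edgeR, adjusted p = 0.0181). The promoter regions of Dnajb1, at chr8:83607998-83608148, and of Cirbp, at chr10:80167658-80167808, had small waves of 0.22 ± 0.06 (ZT2.64, adjusted p = 0.0260) and 0.23 ± 0.06 (ZT4.08, adjusted p = 0.0326), calls that missed the threshold when any of 3 libraries for Dnajb1 (1 of ZT13 and 2 of ZT17) or of 4 for Cirbp (the same 3 and the first of ZT5) was left out. With time as 6 levels neither was called (adjusted p = 0.0764 for Dnajb1 and 0.0932 for Cirbp). The Hspa8 call was lost without the ZT21 library of 12.9 CPM (0.83, adjusted p = 0.0546). A region in intron sequence 6695 bases before the Cirbp start, chr10:80161069-80161219, had no called 24 h wave but differed between times (adjusted p = 0.000466), with 52.1, 55.6 and 62.5 CPM at ZT5 and 34.3 to 54.5 CPM at the other times. The same held for the region 420 bases past the Cirbp start (adjusted p = 0.0328 between times). With time as 6 levels 5 of the 19 BAT regions were called, where 33% of all BAT regions were, so such a call sets neither apart.

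**Figure D5:**
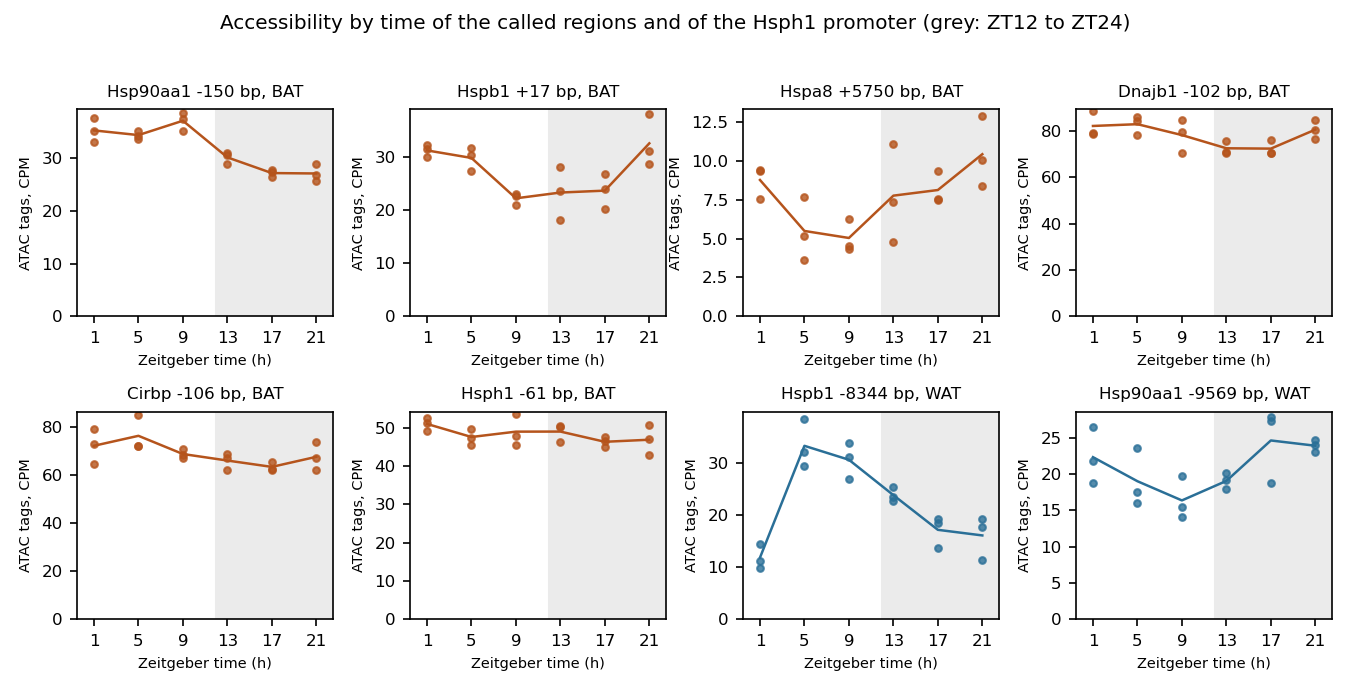
ATAC tags in CPM (vertical axes, from 0, each with its own scale) against Zeitgeber time in hours for the 5 called BAT regions, the Hsph1 promoter region in BAT and the 2 called WAT regions, each titled by gene and distance from its start. Points are libraries, lines join means, and grey marks ZT12 to ZT24. The Hsph1 panel stays between 42.9 and 53.6 CPM.

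In WAT 2 of the 18 regions had a 24 h wave, where 15.8% of the 25050 regions were called. An intergenic region 8344 bases before the Hspb1 start, chr5:135879500-135879650, had 9.83, 11.2 and 14.4 CPM in WAT at ZT1, 38.4, 32.0 and 29.5 CPM at ZT5, 31.2, 33.8 and 27.0 CPM at ZT9, 23.5, 25.3 and 22.6 CPM at ZT13, 19.3, 13.7 and 18.5 CPM at ZT17, and 17.7, 11.4 and 19.2 CPM at ZT21. The ZT5 and ZT9 libraries were above all others, and the wave of 1.32 ± 0.22 (SE) peaked at ZT8.83 (edgeR, adjusted p = 0.000748, and a q-value of 0.0479 in the authors' deposited table). ZT5 and ZT1 were the times of the highest and lowest mean of Hspb1 RNA in WAT. The region at the Hspb1 start in WAT had a wave of 0.35 ± 0.21 that was not called (adjusted p = 0.461). The other called WAT region, 9569 bases before the Hsp90aa1 start at chr12:110705889-110706039, had a wave of 0.54 ± 0.16 peaking at ZT20.4 (adjusted p = 0.0481), a call lost when any of 14 of the 18 libraries was left out, with sizes of 0.47 to 0.62 over the 18 fits, and also lost with time as 6 levels (adjusted p = 0.204).

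BMAL1 binding in inguinal WAT at ZT4 was listed at 8 of the 10 genes and not at Hspb1 or Hsf1. Of the 12693 genes tested in WAT RNA that have a symbol, 50.3% had a peak annotated to them, and 41.3% had one within 1000 bases of the start, against 7 of the 10 genes here. Peak scores are the authors' own, and the list's median was 6.16. The highest score, 13.0 and rank 666 of 10368, belonged to the Hsph1 promoter at chr5:149636268-149636480, with 12.7 and 13.0 tags in the scaled signal of the 2 libraries, and the CACGTG printed above lies inside this peak, 42 bases from its centre. Hspa8 followed with 12 at 1152 bases before its start, Hsp90aa1 with 11.6 at its promoter, Dnajb1 with 10.1 and Cirbp with 9.59 at its promoter and 8.05 at 7743 bases before it. Hspa1b, Hspa1a and Rbm3 had the weakest peaks, with scores of 5.14, 4.45 and 4.11. Of the 9 peaks 7 overlapped a WAT ATAC region by at least 1 base, where 70.2% of all peaks did, and those of Hsph1 and Hspa8 were the 2 that did not. With 1 time and 1 pooled list, binding could not be compared between times or with BAT.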

How the data were processed

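Per the file headers, the deposited RNA table holds the authors' estimated counts per Ensembl gene, not normalized. They were rounded to whole numbers. A table for each depot holds the authors' TPM with a JTK_CYCLE p-value and q-value, which are credited where printed. For ATAC, the authors counted raw tags per region with HOMER on mm10, and their BMAL1 list gives a HOMER peak score and a signal scaled per library, per the file headers. RSEM 1.3.0, STAR 2.7.5, Bowtie2 2.4.1, HOMER, limma and DESeq2 are named in the submitters' processing notes without a role. The strand setting of the counting was not given in those sources. Of the 55487 genes, 55394 were matched to a symbol, and 1 RNA column of no listed sample was not used.

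Tests used edgeR 4.0.16 in R 4.3.3 (quasi-likelihood, TMM, filterByExpr by group, Benjamini-Hochberg over all features, call at adjusted p under 0.05), which were tested on simulated data. Each depot was fitted apart for time, with 24 h cosine and sine terms, a 12 h pair beside them, a dark minus light contrast, or 6 time levels. The depot difference used all 35 RNA libraries with time as a factor. SE of a wave is its size divided by the root of its doubled F value. Alternatives were DESeq2 1.42.0, other scalings and filters, left-out libraries and a replicate block. The leave-one-out fits of the test over 6 time levels and the depot interaction over 6 time levels were chosen after seeing the data. Named were all 10 genes, their nearest and called regions, up to 8 called partners a depot, and the 5 genes of most like pattern; other list members named were chosen after their values were seen. The 10 genes and the lists were chosen with earlier results of these data known. Same-numbered libraries did not deviate together (median r of 0.05 over 40 pairs in BAT and 0.02 over 45 in WAT), so the numbers do not pair the samples. No 2 libraries had identical counts. Counting error is smallest in BAT, where depth is higher.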

Additional observations from a re-analysis of the deposited data

How the results depend on the processing

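Single-gene calls near the threshold moved with the test and with single libraries, and no called direction reversed under any alternative tried. Genes called, with the count among the 10 after a slash and the reported counts first, were as follows. For the 24 h wave in BAT (1136/3), DESeq2 called 2465/8, no filter 1754/8 and time as 6 levels 617/7. In WAT (1257/0), DESeq2 called 2106/1, no filter 3046/1, and leaving out the 3 libraries rich in ribosomal RNA 2689, while time as 6 levels called 2 of the genes. For the 12 h component in BAT (12/2), DESeq2 called 294/4 and no filter 1034/7; in WAT (0/0), DESeq2 called 347/2, no filter 377/1 and leaving out the 3 libraries 14. For dark against light in BAT (161/1), DESeq2 called 353 and no filter 471/3; in WAT (953/0), DESeq2 called 1575, no filter 1457 and leaving out the 3 libraries 2845/1, the gene being Hsp90aa1. For the depot interaction (1353/0), DESeq2 called 2615/2, no filter 2156/4, depot by 6 time levels 775/1 and leaving out the 3 libraries 3616/1, and DESeq2's size factors or leaving out mitochondrial and ribosomal RNA loci brought 1 of the genes, Rbm3. Between times in WAT (1589/2), leaving out the 3 libraries called 2688. Of the ATAC regions in BAT (8053), time as 6 levels called 14063, and of the 2 called regions of the genes in WAT, DESeq2's size factors, library size alone and time as 6 levels each left 1. With BMAL1 peaks of at least the median score, 5 of the 8 genes kept a peak. The cause of these changes was not tested. The median over all genes of the depot difference moved by -0.31 with DESeq2's size factors, -0.35 with no filter and -0.12 without mitochondrial and ribosomal RNA loci, and that of dark against light in WAT by -0.14 with no filter.

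A fit with the replicate number as a block called 0 genes for the 12 h component in BAT, so 0 of the 10 (adjusted p = 0.0970 for Hsph1 and for Cirbp), and 16 in WAT, and left the 24 h wave of Hsph1 at adjusted p = 0.0536. The numbers mark no known pairing. Leaving out 1 library at a time gave 460 to 3383 genes and 2 to 7 of the 10 for the 24 h wave in BAT, 472 to 2519 and 0 to 0 in WAT, 0 to 66 and 0 to 2 for the 12 h component in BAT, 0 to 146 and 0 to 1 in WAT, 59 to 194 and 0 to 2 for dark against light in BAT, 188 to 2013 and 0 to 0 in WAT, 277 to 2145 and 5 to 8 between times in BAT, 800 to 2279 and 0 to 2 in WAT, 491 to 2949 and 0 to 1 for the interaction, 11122 to 12094 and 5 to 5 for the depot difference, and 6105 to 8236 regions in BAT, 3 to 5 of the genes', and 3240 to 4068 in WAT, 1 to 2 of the genes'. The second BAT ZT21 library set the highest counts in BAT for the 24 h wave and between times, and the WAT ZT9 library with 60.7% ribosomal RNA loci those of WAT for the 24 h wave and dark against light. Depth limits Hspa1a and Hspa1b most, with 409 and 568 counts over the BAT libraries and 123 and 171 over the WAT libraries.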
